A study of Mus musculus with 4 samples.

Results

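The respiratory chain genes were taken as every gene in the count table whose symbol begins with Nduf, Uqcr or Atp5 or with Cox followed by a digit from 4 to 8, together with the protein-coding genes of mitochondrial DNA whose symbols begin with mt-Nd, mt-Co, mt-Atp or mt-Cytb. The rule found 101 genes among the 27998 in the table, of which 88 are nuclear and 13 mitochondrial. They were described in immune cells from 4 single-cell libraries of mouse brain, each library being the only sample of its group. The group given anti-CTLA-4 with CD4 depletion carried glioma-005 tumors and received a CTLA-4 antibody (hamster clone 9H10) and a CD4 antibody (clone GK1.5). The anti-CTLA-4 group carried the same tumors and received the CTLA-4 antibody alone. The IgG group carried the same tumors and received an isotype control (rat IgG2a, clone LTF-2). The healthy brain group had no tumor. Glioma-005 is a mouse glioblastoma line, which was placed in the hippocampus of C57BL/6J mice aged 8 to 12 weeks. Antibodies were given from day 7 and tissue was collected on day 35. A tumor library is a pool of 3 tumors, so differences between mice cannot be seen. Microglia, other myeloid cells, T cells and the remaining immune cells were sorted and mixed in equal parts before capture, so the cell numbers of a lineage carry the sort, not the tissue.

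The respiratory chain sits in the inner mitochondrial membrane and passes electrons to oxygen. Complex I (Nduf and mt-Nd genes) and complex III (Uqcr and mt-Cytb) feed electrons to complex IV (Cox and mt-Co), and the proton gradient that results drives complex V, the ATP synthase (Atp5 and mt-Atp). Most subunits are encoded in the nucleus, while a small set of catalytic subunits is transcribed from mitochondrial DNA as long joint transcripts. Accessory subunits surround the catalytic core, and assembly factors such as the Ndufaf genes help build complex I without staying in it. A few complex IV subunits have isoforms restricted to tissues: Cox6a2 replaces Cox6a1 in heart and skeletal muscle, and Cox6b2 replaces Cox6b1 in testis.

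Promoters are shown for 3 members on which the results turn. Cox6a1 is the common partner of the muscle isoform that was high in microglia, Cox6b2 is the isoform that was high in monocytes and macrophages, and Atp5l had the lowest fold change among the nuclear members called lower in microglia. Each run gives the 250 bases before the start site (RefSeq, GRCm38.p6), all on the minus strand and written 5′ to 3′ along the gene. Capitals mark 2 motifs: the palindrome bound by NRF1, which is the first and longer capital run in Cox6a1, and CCGGAAG or its reverse complement CTTCCGG, which ETS factors such as GABP bind. NRF1 and GABP are known regulators of nuclear respiratory genes.
Cox6a1 (chr5:115348959-115349208): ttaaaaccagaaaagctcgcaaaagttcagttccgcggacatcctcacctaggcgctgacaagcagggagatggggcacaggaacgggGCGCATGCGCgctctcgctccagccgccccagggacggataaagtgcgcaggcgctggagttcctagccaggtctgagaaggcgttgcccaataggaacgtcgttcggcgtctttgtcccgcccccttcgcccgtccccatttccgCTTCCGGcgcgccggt
Cox6b2 (chr7:4753095-4753344): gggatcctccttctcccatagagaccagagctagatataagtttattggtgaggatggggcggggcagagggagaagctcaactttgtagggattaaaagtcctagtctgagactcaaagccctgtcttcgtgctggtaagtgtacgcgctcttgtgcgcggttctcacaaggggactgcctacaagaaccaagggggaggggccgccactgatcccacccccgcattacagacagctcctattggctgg
Atp5l (chr9:44920743-44920992): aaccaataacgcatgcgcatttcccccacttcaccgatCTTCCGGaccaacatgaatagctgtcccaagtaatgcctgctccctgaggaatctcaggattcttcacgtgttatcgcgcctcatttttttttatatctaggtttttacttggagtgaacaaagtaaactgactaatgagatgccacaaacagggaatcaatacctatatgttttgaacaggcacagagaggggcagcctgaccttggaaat
The Cox6a1 window held 1 match of each motif, the Atp5l window held 1 ETS match, and the Cox6b2 window held neither. Windows were found for 73 of the 88 nuclear members, some of which have a pair of start sites and so more than 1 window, and the muscle isoform Cox6a2 was not among them. The NRF1 letters stood in a window of 5 of these 73 genes (6.85%), against 237 of all 27025 genes with a window (0.877%). The ETS letters stood in a window of 12 of the 73 genes (16.4%), against 2115 of the 27025 genes (7.83%). These are matches of letters on either strand, the motifs do not overlap each other, and a window without a match says nothing of the factor.

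Each library held between 1420 and 3916 cell barcodes and between 7950206 and 21471565 unique molecular identifiers (UMIs, each standing for 1 captured RNA molecule), and 1400 to 3875 cells were kept. At most 6 barcodes were shared by any pair of libraries. Lineages were set by marker UMIs: a cell joined the marker list of which it showed the most genes, if at least 3 had a UMI and no other list had more than 50% of that number. Of kept cells, 10.7% to 24.7% met no such list, and 13.3% to 29.8% of assigned cells were within 1 marker of losing their place. Every marker in the table of a lineage's own list had UMIs in each lineage compared, except Arg1 in monocytes and macrophages of healthy brain. Microglia numbered 195 to 782 per library, neutrophils 53 to 503, T cells 130 to 947 and B cells 67 to 192. Monocytes and macrophages numbered 277 to 670 in the tumor libraries and 48 in healthy brain, and NK cells 158 to 338 in the tumor libraries and 4 in healthy brain, where they were not used. At most 8 dendritic and 2 plasmacytoid dendritic cells were found in a library, so their planned comparison could not be fitted.

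For each lineage of a library the UMIs of its cells were added up. Levels are given as CPM, UMIs of a gene in every 1000000 UMIs of that lineage, and since the method tags the 3′ end, a UMI count does not grow with gene length. A lineage was tested against the equally weighted mean of the other lineages with edgeR's quasi-likelihood test, in which the libraries serve as replicates (4 for each lineage, 3 for NK cells). These replicates come from groups treated differently, so the test asks about the average lineage difference over the libraries. A small p does not show that the difference holds in each library, healthy brain included. Of the 88 nuclear members 81, and all 13 mitochondrial members, passed the filter on low counts. Cox4i2, Cox7a1 and Atp5s, with 61, 114 and 118 UMIs in all, did not, and Cox7b2, Cox8b, Cox8c and Ndufa4l2 had no UMI.

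Lineages differed in how much of their RNA came from respiratory chain genes, and the nuclear and mitochondrial sets did not rank them alike. Nuclear members made up 2.01% of microglial UMIs with anti-CTLA-4 plus CD4 depletion, 1.38% with anti-CTLA-4, 1.61% with IgG and 1.25% in healthy brain. In neutrophils the same members made up 2.70%, 2.37%, 2.64% and 1.03% in that order of libraries. B cells gave 1.95%, 1.82%, 1.76% and 2.39% with the same order. Microglia had the lowest nuclear share of the 6 lineages with anti-CTLA-4 and with IgG, B cells did with depletion, and neutrophils did in healthy brain. Mitochondrial members made up 3.20%, 3.29%, 3.36% and 3.70% of B cell UMIs, the highest of the lineages in every library. In neutrophils they made up 1.33%, 1.15%, 1.26% and 0.475%, the lowest in every library. Neutrophils therefore held 0.459 to 0.491 mitochondrial UMIs per nuclear UMI in the 4 libraries, and B cells 1.55 to 1.91. Monocytes and macrophages (0.770 to 1.01), NK cells (1.0 to 1.04), T cells (0.927 to 1.62) and microglia (1.12 to 1.35) lay between the neutrophil and B cell ranges, apart from T cells of healthy brain at 1.62. Exact binomial intervals around these shares were narrow and cover counting error only. Cells with more than 10% mitochondrial UMIs had been removed, which bounds the mitochondrial share of any cell.

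**Figure D1:**
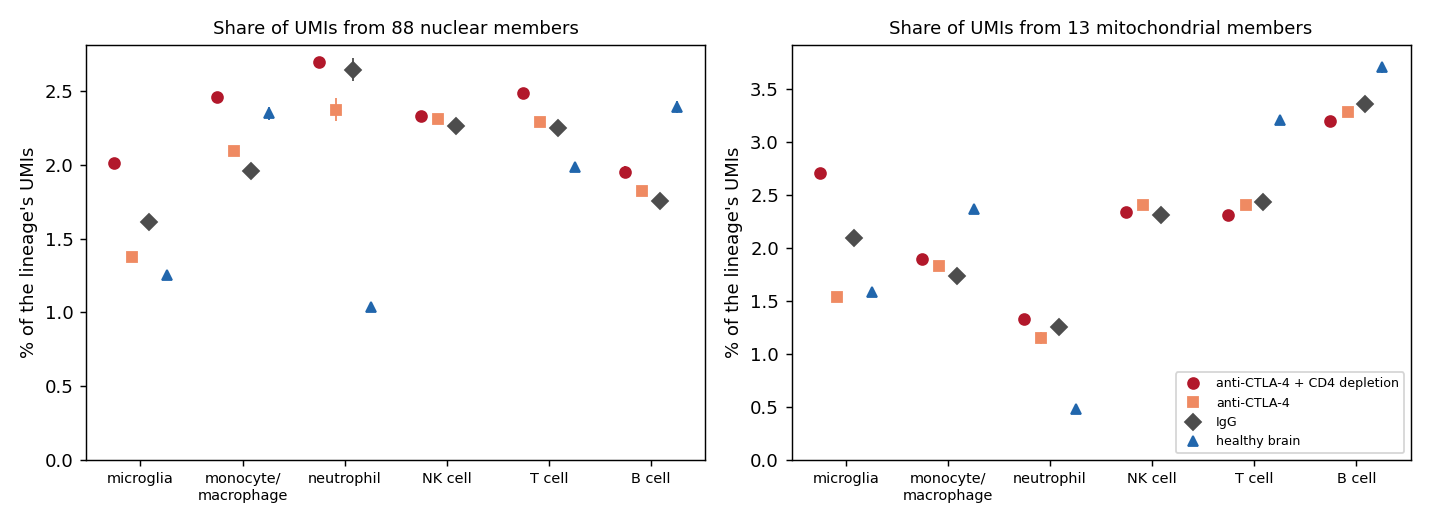
Share of a lineage's UMIs from the 88 nuclear members (left) and the 13 mitochondrial members (right), in percent, for 6 lineages (x axis) and the 4 libraries (symbols), with exact 95% binomial intervals. Neutrophils are lowest and B cells highest for the mitochondrial members in every library, and healthy brain neutrophils stand apart at 1.03% nuclear and 0.475% mitochondrial.

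In microglia most nuclear members were lower than in the other lineages. Of the 81 tested, 52 were lower and 5 higher at an adjusted p under 0.05 (edgeR), where 23% of all 10025 genes tested were called lower and 30.3% higher. The median log2 fold change was -0.54 over the nuclear members and 0.04 over all genes. Accessory subunits carried most of this, with 44 of 55 lower, including all 12 of complex IV and all 7 of complex V. Of 16 core subunits 8 were lower and none was higher. Of the 8 assembly factors and related genes 2 were higher and none was lower, counts too small to set apart from the shares of all genes. In microglia the share of UMIs from ribosomal protein genes was also low, at 20.6% with depletion, 14.7% with anti-CTLA-4, 17% with IgG and 10.9% in healthy brain, against 22.2% to 27.2% in monocytes and macrophages. In neutrophils it was lower still, at 12.5%, 11.3%, 12.1% and 3.68%, although their nuclear share was the highest of the lineages in the tumor libraries. The part of the ribosomal share in the result was not tested, and in a fit without ribosomal and mitochondrial genes 52 nuclear members were lower. With every cell thinned to 1000 UMIs the fit tested 74 nuclear members and 29 were lower. The shares of all genes called in these alternative fits are not given here.

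Atp5l, the g subunit of the ATP synthase, had 550, 319, 405 and 282 CPM in microglia of the depletion, anti-CTLA-4, IgG and healthy brain libraries. In monocytes and macrophages it had 1030, 742, 738 and 899 CPM, and in T cells 802, 654, 623 and 505 CPM. Microglia were the lowest lineage in every library, with a log2 fold change of -1.14 (SE 0.15, edgeR adjusted p = 1.1e-06). Ndufa6, an accessory subunit of complex I, had 209, 153, 161 and 154 CPM in microglia and 399, 303, 335 and 432 CPM in monocytes and macrophages, without overlap (microglia against the other lineages, log2 fold change -1.05, SE 0.12, edgeR adjusted p = 2.65e-07). Cox7a2, a complex IV subunit, and Atp5e, the epsilon subunit of complex V, had log2 fold changes of -1.11 and -1.09. The members called higher included Ndufaf4, a complex I assembly factor, with 45.1, 58.8, 54.7 and 52.3 CPM in microglia and 17.2, 14.2, 12.6 and 15 CPM in monocytes and macrophages. Its log2 fold change was 1.33 (SE 0.22, edgeR adjusted p = 2.4e-05). Ndufaf7, which methylates a core subunit during assembly, and the complex I subunit Ndufa9 followed at 0.62 and 0.56. Among mitochondrial members, mt-Co1, mt-Co2, mt-Atp6, mt-Atp8 and mt-Nd5 were lower in microglia (log2 fold changes from -0.78 to -0.50) and none was higher by edgeR, where 1 was at an unadjusted p under 0.05 and 1 by DESeq2. This count of 5 was 2 without the anti-CTLA-4 library and 2 after thinning. The call of Ndufaf7 was lost without the depletion library (edgeR adjusted p = 0.124), without the anti-CTLA-4 library (0.108) and with a looser marker rule (0.0536).

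**Figure D2:**
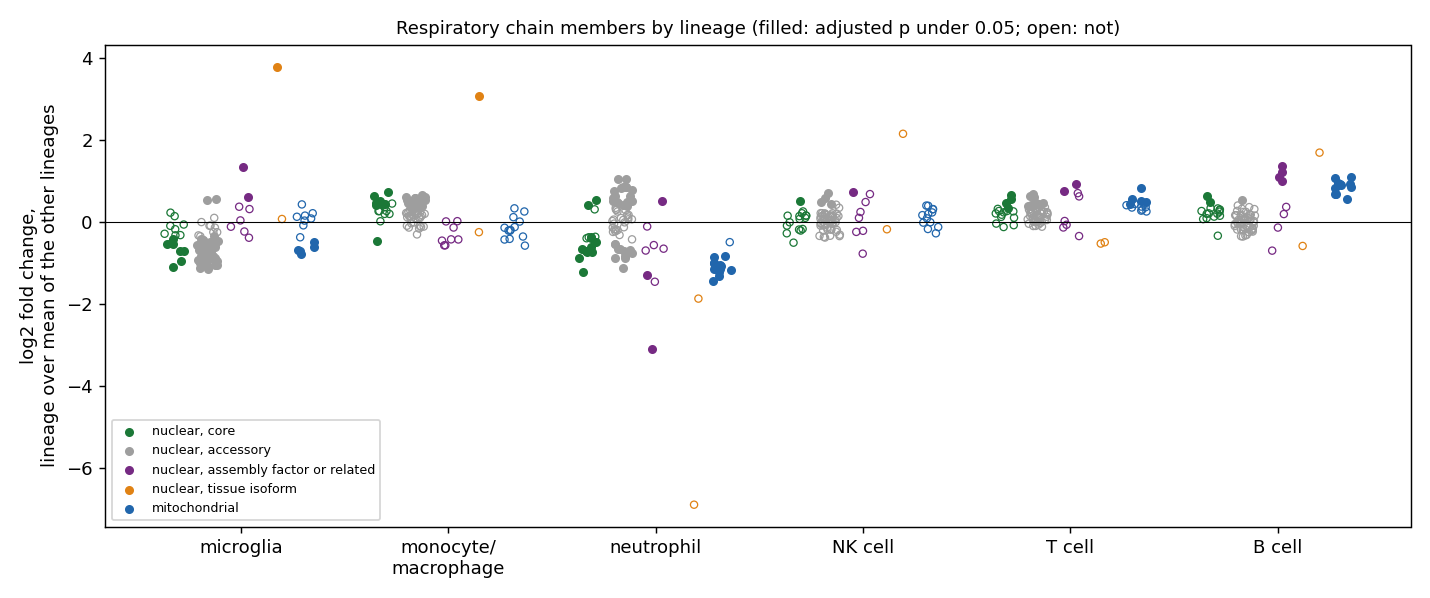
Log2 fold change (y axis) of 81 nuclear and 13 mitochondrial members in each lineage against the equally weighted mean of the other lineages, by role (colour); each point is a gene, filled where the edgeR adjusted p is under 0.05. Grey accessory subunits lie mostly below 0 in microglia and mostly above 0 in monocytes and macrophages and T cells, and the blue mitochondrial members are lowest in neutrophils and highest in B cells.

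The highest fold change of all was that of Cox6a2 in microglia. This muscle isoform of a complex IV subunit had 78.4, 24.0, 39.6 and 7.29 CPM in microglia of the depletion, anti-CTLA-4, IgG and healthy brain libraries. Monocytes and macrophages had 5.74, 2.28, 0.407 and 0 CPM, and T cells had 0.653, 6.36, 2.09 and 0 CPM. Neutrophils had no Cox6a2 UMI in any library. The log2 fold change of 3.79 (SE 0.71, edgeR adjusted p = 0.000166) passed the threshold under every alternative setting tried, and its size depends on how the lineages at 0 are treated. Among microglia, 22.5% of 409 cells had a Cox6a2 UMI with depletion, 8.72% of 195 with anti-CTLA-4, 13.7% of 234 with IgG and 2.81% of 782 in healthy brain, at median depths of 5267, 5158, 6022 and 5185 UMIs. In neutrophils with depletion it was 0 of 503 cells at a median of 1900 UMIs, which allows a share of up to 0.596% of cells with a UMI at that lower depth and does not limit the share of cells expressing the gene. In T cells of the same library it was 0.317% at a median of 4227 UMIs.

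Plasmacytoid dendritic cells also carry Cox6a2: the 2 such cells with depletion had 1738 CPM and the 1 with anti-CTLA-4 had 1331 CPM. Of the 8 plasmacytoid markers, 5, 6, 4 and 2 were at 0 in microglia of the depletion, anti-CTLA-4, IgG and healthy brain libraries, Klk1 and Klra17 among them in each. The list's summed level in these cells was 663, 1114, 836 and 1990 CPM, which includes Siglech, a gene microglia also express, so the sum does not measure plasmacytoid RNA alone. Outside microglia Cox6a2 had 7.04, 10.1 and 25.6 CPM in NK cells of the depletion, anti-CTLA-4 and IgG libraries. It had 24.5 CPM in B cells of healthy brain, above the microglia of that library. Neither NK cells nor B cells passed the test (edgeR adjusted p = 0.150 and 0.343). Over all kept cells of the depletion library, 14.8% of the 763 cells with 1 or 2 plasmacytoid markers had a Cox6a2 UMI, against 1.80% of the 3107 with none, and the markers include Siglech. The common partner Cox6a1 had 252, 189, 251 and 163 CPM in microglia and was lower there than in the other lineages (log2 fold change -0.60, SE 0.15, edgeR adjusted p = 0.00197).

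In monocytes and macrophages more nuclear members were called higher than lower. Of 81 members 26 were higher than in the other lineages and 1 was lower, where 26.7% of all genes were higher and 14.8% lower (edgeR, adjusted p under 0.05), so the share called higher is near the background. The median log2 fold change was 0.26, against 0.05 over all genes. The count of higher members was 16 without the depletion library, 11 without anti-CTLA-4, 16 without IgG and 27 without healthy brain. Set directly against microglia, 53 nuclear members were higher in monocytes and macrophages and 5 lower, where 23.9% and 22.9% of all genes were called. After thinning to 1000 UMIs 24 were higher. The 5 that were lower were Cox6a2, Ndufaf4, Ndufaf7, Ndufaf2 and Ndufa9, so 3 of them are complex I assembly factors. None of the 13 mitochondrial members was called in monocytes and macrophages against the other lineages by edgeR, with 1 lower at an unadjusted p under 0.05 and 3 lower by DESeq2.

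Cox6b2, the testis isoform of a complex IV subunit, led the monocyte and macrophage members. It had 10.9, 10.5, 9.78 and 27.9 CPM in these cells with depletion, anti-CTLA-4, IgG and healthy brain, from 55, 37, 24 and 13 UMIs. In microglia it had 5.36, 3.31, 2.91 and 0.972 CPM, and in B cells 0, 0, 0 and 7.54 CPM. Monocytes and macrophages were the highest lineage in each library (log2 fold change 3.08, SE 0.47, edgeR adjusted p = 1.57e-05). Its common partner Cox6b1 had 603, 530, 486 and 611 CPM in the same cells. The Rieske iron-sulfur protein of complex III, Uqcrfs1, had 204, 150, 142 and 157 CPM in monocytes and macrophages and 112, 77.8, 90.8 and 72.2 CPM in microglia. Its log2 fold change against the other lineages was 0.74 (SE 0.14, edgeR adjusted p = 0.000252), and after thinning the adjusted p was 0.0877. Ndufa6 and Atp5c1, the gamma subunit of the ATP synthase, were higher by 0.66 and 0.64 on the log2 scale. Ndufs1, a core subunit of complex I, was the single member called lower (-0.46, edgeR adjusted p = 0.0455), and leaving out any library ended that call, with adjusted p from 0.0765 without depletion, 0.184 without anti-CTLA-4, 0.100 without IgG and 0.0773 without healthy brain.

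**Figure D3:**
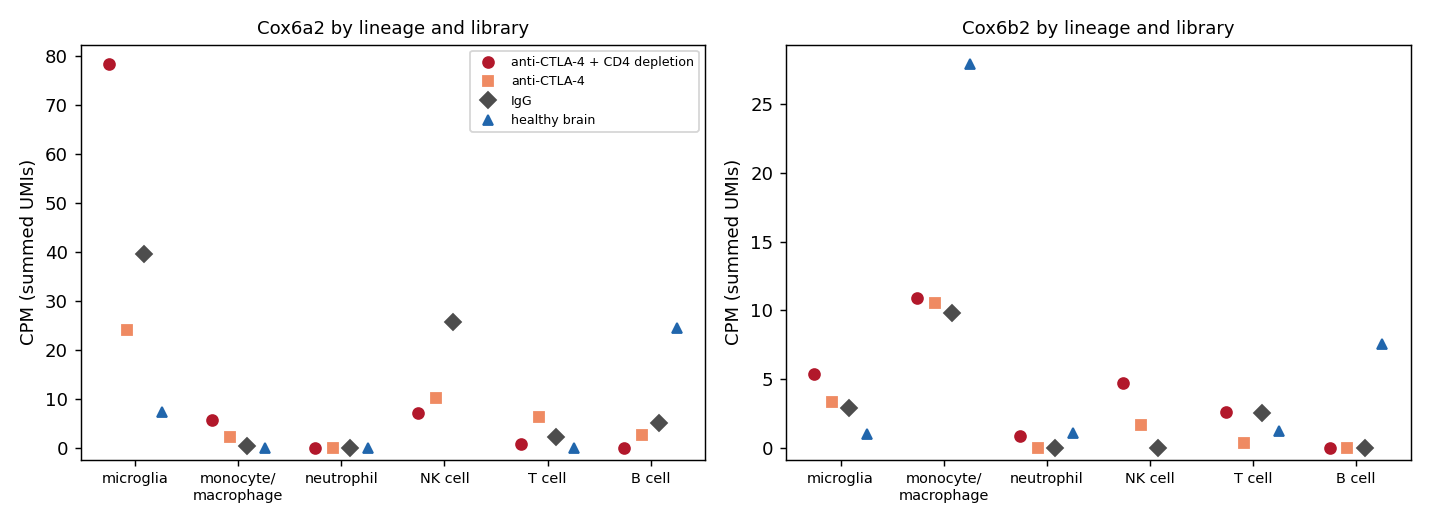
Level in CPM of the complex IV isoforms Cox6a2 (left) and Cox6b2 (right) by lineage (x axis) and library (symbols), from summed UMIs. Within each of the 3 tumor libraries Cox6a2 is highest in microglia (24.0 to 78.4 CPM), while in healthy brain B cells lie above microglia. Cox6b2 is highest in monocytes and macrophages (9.78 to 27.9 CPM).

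In neutrophils nearly every mitochondrial member was lower, while the nuclear members went both ways at shares not far from those of all genes. Of 81 nuclear members 22 were higher and 22 lower than in the other lineages, where 24.6% and 19.2% of all genes were called (edgeR, adjusted p under 0.05). Accessory subunits were 19 higher and 10 lower of 55, while core subunits were 2 higher and 10 lower of 16. Of the 13 mitochondrial members 12 were lower and none higher, with a median log2 fold change of -1.08 against -0.04 over all genes. The decreases past the threshold ran from -0.83 for mt-Nd4l to -1.44 for mt-Co3, with mt-Nd1 at -1.33, mt-Nd2 at -1.01, mt-Nd3 at -1.17, mt-Nd4 at -1.01 and mt-Nd6 at -1.08. mt-Atp8 missed it (-0.49, edgeR adjusted p = 0.10). The higher nuclear count was 14 without the depletion library, 13 without anti-CTLA-4 and 11 without IgG. After thinning it was 11. The mitochondrial count was 11 or 12 whichever library was left out. Neutrophils were the shallowest lineage, with median depths of 1900, 2573, 2540.5 and 3244 UMIs per cell in the depletion, anti-CTLA-4, IgG and healthy brain libraries.

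Ndufb9, an accessory subunit of complex I, had 546, 529, 605 and 201 CPM in neutrophils of the depletion, anti-CTLA-4, IgG and healthy brain libraries. T cells had 310, 262, 258 and 157 CPM, so neutrophils were above them in each library (neutrophils against the other lineages, log2 fold change 1.06, SE 0.13, edgeR adjusted p = 1.05e-06). Cox7a2 had 1085, 1072, 1185 and 277 CPM in neutrophils and 378, 233, 307 and 206 CPM in microglia, and Ndufa7 and Ndufb6 were also higher (0.87 and 0.86 on the log2 scale). In healthy brain the direction for Cox7a2, Ndufa7 and Ndufb6 depended on the scaling of the fit. Unscaled levels of these genes and of Ndufb9 were not the highest in neutrophils there. Cox7a2 had 430, 346 and 530 CPM in monocytes and macrophages, T cells and B cells, above the 277 CPM of neutrophils. Ndufb6 had 48.4 CPM in neutrophils and 51.8 to 98 CPM in the other lineages. The TMM factor of healthy brain neutrophils was 0.583, the lowest of the 23 sums. Among the lower members was Atp5g2, which encodes a c subunit of the ATP synthase ring, with 333, 324, 368 and 71.5 CPM in neutrophils and 701, 639, 664 and 567 CPM in T cells (log2 fold change -1.21, SE 0.17, edgeR adjusted p = 3.94e-06). Atp5g1, Atp5g2 and Atp5g3 encode the same mature protein. Ndufaf4 had 4.96, 6.62, 6.24 and 0 CPM in neutrophils and showed a log2 fold change of -3.10 (SE 0.47, edgeR adjusted p = 1.35e-05). Ndufaf2, another complex I assembly factor, and Ndufa9 were lower by -1.29 and -1.12 on the log2 scale, and the call of Ndufaf2 was lost under the stricter marker rule (adjusted p = 0.122).

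Every mitochondrial member was higher in B cells than in the mean of the other lineages. The log2 fold changes of the 13 ran from 0.56 (mt-Atp8) to 1.09 (mt-Cytb), with a median of 0.91. Of all genes 16.7% were higher (edgeR, adjusted p under 0.05). B cells were not above each single lineage for every member: mt-Nd1 with depletion took a larger share of UMIs in microglia. Leaving out libraries gave 10 to 13. mt-Cytb, the catalytic subunit of complex III, had 4101, 4381, 4596 and 5029 CPM in B cells of the depletion, anti-CTLA-4, IgG and healthy brain libraries. In T cells it had 2575, 2959, 3140 and 4223 CPM, and in monocytes and macrophages 1820, 1735, 1664 and 2034 CPM. mt-Co3, a core subunit of complex IV, had 5425, 5773, 5879 and 7105 CPM in B cells and 1612, 1720, 1883 and 889 CPM in neutrophils. The nuclear set moved less in B cells, with 7 of 81 higher and none lower by edgeR (16.4% of all genes were lower), 3 lower at an unadjusted p under 0.05 and none lower by DESeq2. Of the 7, 4 are assembly factors or related genes: Ndufaf4, Ndufaf5, Ndufaf6 and Atp5sl. In that order of libraries Ndufaf5 had only 7, 7, 5 and 5 UMIs in B cells, and Ndufaf6 4, 11, 3 and 7. The Ndufaf5 call was lost without depletion (edgeR adjusted p = 0.136) and without IgG (0.0957), among other settings. That of Ndufaf6 was lost without anti-CTLA-4 (0.243), without IgG (0.0678) and without healthy brain (0.127), among other settings. Ndufaf4 had 72.5, 25.8, 22.7 and 56.6 CPM in B cells, a log2 fold change of 1.21 (SE 0.26, edgeR adjusted p = 0.00114). The count of 7 was 3 without the anti-CTLA-4 library, 3 without IgG and 2 after thinning.

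In T cells 18 nuclear members were higher and none lower than in the other lineages, where 20.8% of all genes were higher and 16.1% lower (edgeR, adjusted p under 0.05; none lower at an unadjusted p under 0.05 or by DESeq2). The median was 0.21, against 0.03 over all genes. Uqcrh, the hinge protein of complex III, had 1208, 996, 907 and 794 CPM in T cells of the depletion, anti-CTLA-4, IgG and healthy brain libraries and 523, 406, 469 and 294 CPM in microglia (T cells against the other lineages, log2 fold change 0.68, SE 0.13, edgeR adjusted p = 0.000331). Atp5g3, Ndufaf2 and Ndufaf4 were higher by 0.66, 0.94 and 0.76 on the log2 scale, and Ndufaf4 lost its call without anti-CTLA-4 (adjusted p = 0.062) and after thinning (0.371). The 18 became 10 without depletion, 7 without anti-CTLA-4 and 7 without IgG. Of the mitochondrial members mt-Co1, mt-Co3, mt-Atp6, mt-Cytb and mt-Nd6 were higher, and this count of 5 was 1 without anti-CTLA-4, 1 without IgG, 3 without healthy brain and 2 without the library term.

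NK cells, tested in the 3 tumor libraries, had 6 nuclear members higher and none lower, where 14.1% and 12.7% of all genes were called (edgeR, adjusted p under 0.05). At an unadjusted p under 0.05 1 was lower, as by DESeq2. Of the mitochondrial members none was called, nor at an unadjusted p under 0.05 or by DESeq2. Ndufa4, a small complex IV subunit, had 598, 589 and 532 CPM in NK cells with depletion, anti-CTLA-4 and IgG, and 353, 244 and 233 CPM in monocytes and macrophages (NK cells against the other lineages, log2 fold change 0.72, SE 0.18, edgeR adjusted p = 0.00426). Atp5h, Atp5d and Ndufaf2 were higher by 0.57, 0.51 and 0.74. The count of 6 was 3 without depletion and 0 without anti-CTLA-4 or without IgG, where 2 libraries remained for these cells. Set against T cells, no nuclear or mitochondrial member was called in either direction by edgeR, where 5.15% of all genes were higher and 5.13% lower. At an unadjusted p under 0.05 2 nuclear members were higher and 1 lower, 1 mitochondrial member was lower, and DESeq2 called none.

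Within T cells, nuclear members took a larger share of UMIs in cycling cells and mitochondrial members a smaller share. Cycling cells showed at least 3 of 8 cycling genes, and the others none. A minimum of 20 cells left 1 library, so a minimum of 10, chosen after seeing the data, was used for the 3 tumor libraries, with 38, 12 and 13 cycling cells in the depletion, anti-CTLA-4 and IgG libraries. Nuclear members made up 2.72%, 2.73% and 2.67% of the UMIs of cycling T cells, against 2.43%, 2.23% and 2.12% in the other T cells. Mitochondrial members made up 2.01%, 1.78% and 2.09% in cycling T cells, against 2.35%, 2.44% and 2.57% in the others, and neither pair of ranges overlapped. By edgeR 20 of 77 nuclear members were higher and 4 lower, where 12.2% and 8.1% of all genes were called, and 6 of 13 mitochondrial members were lower. Ndufab1, the mitochondrial acyl carrier protein and a complex I subunit, and Cox6a1 were among the higher (0.92 and 0.77 on the log2 scale, edgeR adjusted p = 0.00184 for each). Cycling cells were deeper, with means of 10524, 18914 and 21875 UMIs per cell against 4395, 5940 and 5560. With cells thinned to 1000 UMIs no nuclear member was higher and 1 was lower. The 20 became 6 without anti-CTLA-4 and 7 without IgG, and the 6 became 1 without depletion and 1 without IgG. Between CD8 and CD4 T cells of the 3 libraries with enough CD4 cells (12 were left with depletion), 1 of 77 nuclear members passed, where 1.11% of all genes were higher and 1.28% lower. It was the complex I subunit Ndufa10 (0.73, edgeR adjusted p = 0.047), and it was lost whichever of the 3 libraries was left out.

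The make-up of the mitochondrial UMIs differed between microglia and the monocytes and macrophages. mt-Co1, the catalytic subunit of complex IV, supplied 12.7% to 15.2% of the UMIs of the 13 members in microglia across the 4 libraries, against 21.8% to 22.8% in monocytes and macrophages. mt-Cytb supplied 14.8% to 16.6% in microglia and 8.59% to 9.60% in monocytes and macrophages. mt-Nd1, a membrane subunit of complex I, supplied 9.29% to 11% in microglia and 5.91% to 6.38% in monocytes and macrophages. None of these ranges overlapped, and the microglial share of mt-Nd1 was above that of every other lineage in each library. In the direct comparison mt-Co1 was higher in monocytes and macrophages by 0.93 and mt-Co2 by 0.63 on the log2 scale (edgeR adjusted p = 0.0012 and 0.02), while mt-Cytb (-0.45, adjusted p = 0.16) and mt-Nd1 (-0.46, adjusted p = 0.15) did not pass. In this comparison 23.9% of all genes were called higher and 22.9% lower, so 2 of 13 members higher is not above the background. The count of 2 was 5 without the depletion library, 1 without anti-CTLA-4 and 1 without IgG. mt-Atp8 overlaps mt-Atp6 and mt-Nd4l overlaps mt-Nd4 on the mitochondrial genome, so UMIs of such pairs are uncertain. In neutrophils of the tumor libraries mt-Co1 supplied 15.8% to 16.8% of these UMIs, nearer to microglia than to monocytes and macrophages. There mt-Cytb supplied 12.3% to 14.6%, between the ranges of those lineages. mt-Nd1 supplied 6.37% to 7.40%, nearer to monocytes and macrophages than to microglia. Healthy brain neutrophils went apart from the tumor neutrophils, with mt-Co1 at 30.4% of these UMIs.

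**Figure D4:**
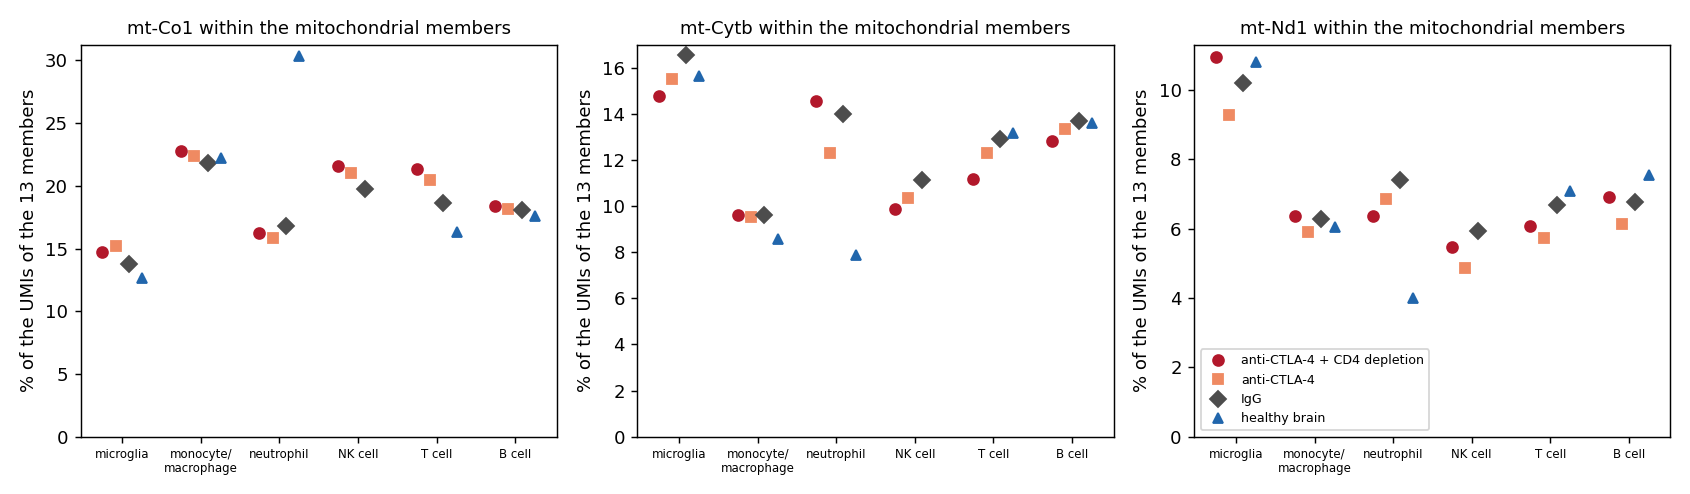
Share of the UMIs of the 13 mitochondrial members supplied by mt-Co1, mt-Cytb and mt-Nd1, in percent, by lineage (x axis) and library (symbols). Microglia are at 12.7% to 15.2% for mt-Co1, below the 21.8% to 22.8% of monocytes and macrophages, and above them for mt-Cytb and mt-Nd1.

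The libraries were next compared within each lineage. With 1 library a group there is no test, so CPM ratios are given with exact conditional-binomial 95% intervals for counting error, and a member counts as past the fold if the pair of libraries holds at least 50 of its UMIs and the ratio is at least 1.5 either way. The comparisons share libraries and are not independent of each other.

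Between IgG tumors and healthy brain the nuclear share was higher with IgG in neutrophils, microglia and T cells and lower in B cells and in monocytes and macrophages. In neutrophils nuclear members took 2.64% of UMIs with IgG and 1.03% in healthy brain, a ratio of 2.56 (2.47 to 2.65). Of 59 nuclear members counted 56 were past the fold upward, as were 50.1% of all genes counted, so the count stands on a high background. Atp5g1 had 281 CPM with IgG and 40.7 CPM in healthy brain, from 45 and 37 UMIs (ratio 6.89, 4.36 to 10.9), and mt-Nd2 had 692 and 88 CPM (ratio 7.86, 5.84 to 10.6). The 8 neutrophil markers took 4.45% of neutrophil UMIs with IgG and 34.9% in healthy brain, and ribosomal protein genes took 12.1% and 3.68%. With these markers taken out of the total, a setting added after seeing the data, nuclear members took 2.77% with IgG and 1.59% in healthy brain (ratio 1.74), and 41 of 59 passed the fold where 30.9% of all genes did. With median-of-ratios scaling, which moved the median of all genes from a log2 ratio of 0.61 to -0.46, 17 nuclear members were higher and 2 lower.

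In microglia nuclear members took 1.61% of UMIs with IgG and 1.25% in healthy brain (ratio 1.29, 1.27 to 1.31). Of 78 counted 11 were past the fold upward and 1 downward, against 7.91% and 29.4% of all genes. Cox6a2 had 39.6 CPM with IgG and 7.29 CPM in healthy brain (ratio 5.43, 3.48 to 8.64), Ndufa1 had 200 and 103 CPM (1.95, 1.68 to 2.25) and Cox5a had 235 and 129 CPM (1.82, 1.60 to 2.08). Median-of-ratios scaling, which moved the median of all genes from -0.30 to -0.04, gave 36 upward and none downward. In these cells the 8 microglia markers summed to 5388 CPM with IgG and 16651 CPM in healthy brain, the monocyte and macrophage list to 1326 and 249 CPM, and ribosomal protein genes took 17% and 10.9% of UMIs. The part of these in the result was not tested.

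In B cells and in monocytes and macrophages the nuclear share was lower with IgG, while the counts of single members past the fold stood near or below those over all genes. In B cells nuclear members took 1.76% of UMIs with IgG and 2.39% in healthy brain (ratio 0.734, 0.713 to 0.756), with 27 of 69 past the fold downward and none upward, against 32.3% and 6.92% of all genes. Ndufs6, a complex I accessory subunit, had 85.7 CPM with IgG and 202 CPM in healthy brain (ratio 0.425, 0.280 to 0.630), and Atp5g3 had 174 and 368 CPM (0.473, 0.354 to 0.626). Ribosomal protein genes took 36.7% of B cell UMIs with IgG and 27.7% in healthy brain. Scaled to the remaining genes, with ribosomal and mitochondrial ones removed, 9 members were downward, as with median-of-ratios scaling. In monocytes and macrophages nuclear members took 1.96% of UMIs with IgG and 2.35% in healthy brain (ratio 0.833, 0.816 to 0.851), and 12 of 73 were downward and none upward, against 20.9% and 18.8% of all genes, and median-of-ratios scaling gave 2 in each direction. Ndufa4 had 233 CPM with IgG and 557 CPM in healthy brain (ratio 0.418, 0.360 to 0.486), and healthy brain held 48 of these cells. T cells had 5 nuclear members upward and 3 downward of 77, against 26.1% and 6.83% of all genes, while their mitochondrial share was 2.44% with IgG and 3.21% in healthy brain (ratio 0.759, 0.749 to 0.770).

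**Figure D5:**
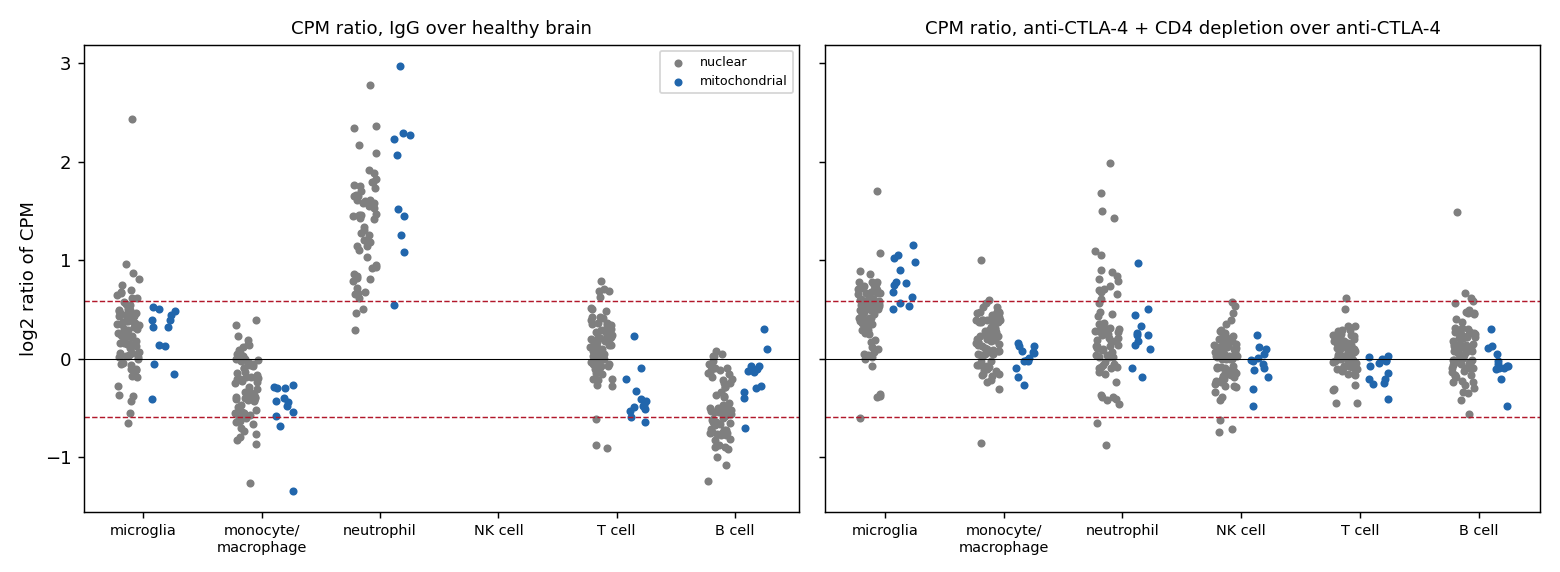
Log2 ratio of CPM (y axis) for IgG over healthy brain (left) and for anti-CTLA-4 plus CD4 depletion over anti-CTLA-4 (right), by lineage; each point is a nuclear (grey) or mitochondrial (blue) member with at least 50 UMIs in the pair, and dashed lines mark a ratio of 1.5 either way. Neutrophils lie highest on the left, where B cells lie mostly below 0, and microglia lie mostly above 0 on the right; NK cells have no points on the left because healthy brain held 4.

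Among the tumor libraries, microglia with CD4 depletion had a larger share of respiratory chain UMIs than microglia with anti-CTLA-4 alone. Nuclear members took 2.01% of UMIs with depletion and 1.38% with anti-CTLA-4 (ratio 1.46, 1.43 to 1.49), and mitochondrial members 2.70% and 1.54% (ratio 1.76, 1.73 to 1.79). Of 77 nuclear members 27 were past the fold upward and 1 downward, against 11.2% and 16.7% of all genes, and 10 of 13 mitochondrial members were upward. Ndufb8, a complex I subunit, had 271 CPM with depletion and 129 CPM with anti-CTLA-4 (ratio 2.10, 1.76 to 2.51), mt-Nd5 had 279 and 125 CPM (2.23, 1.87 to 2.67), and Cox6a2 had 78.4 and 24.0 CPM (3.27, 2.21 to 5.00). IgG lay between them, at 1.61% nuclear and 2.10% mitochondrial. Against IgG, depletion had 5 nuclear members upward and none downward of 79 (6.99% and 12.4% of all genes) and 4 mitochondrial members upward. Ribosomal protein genes took 20.6% of microglial UMIs with depletion, 14.7% with anti-CTLA-4 and 17% with IgG, and the 8 microglia markers summed to 5168, 7636 and 5388 CPM, and their part in the result was not tested. With ribosomal and mitochondrial UMIs removed from the total, which raises the ratios of all genes alike, 47 nuclear members were upward against anti-CTLA-4. The share of all genes upward at that setting is not given here.

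In monocytes and macrophages 9 of 78 nuclear members were upward with depletion against IgG and none downward, where 7.35% and 15.6% of all genes were. Median-of-ratios scaling, which shifts the ratios of all genes alike, gave 26 upward. Cox5b, a complex IV subunit, had 648 CPM with depletion and 398 CPM with IgG (ratio 1.63, 1.52 to 1.75). Against anti-CTLA-4, depletion had 2 of 79 upward and 1 downward in these cells (8.22% and 16.1% of all genes). In T cells 1 nuclear member of 77, Uqcrfs1, was upward with depletion against anti-CTLA-4, where 3.5% of all genes were (164 and 107 CPM, ratio 1.53, 1.35 to 1.75). In neutrophils 17 of 70 were upward and 2 downward with depletion against anti-CTLA-4, where 23.4% and 18.2% of all genes were, so the upward count is near the background. Ndufa11 had 223 UMIs with depletion and 7 with anti-CTLA-4 (ratio 3.98, 1.90 to 10.0). Against IgG, neutrophils with depletion had 3 of 70 upward and 2 downward (18.9% and 19.5% of all genes).

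In the lymphoid lineages at most 4 nuclear members were past the fold in a direction between depletion and the other tumor libraries. NK cells with depletion had 1 of 75 nuclear members upward and 3 downward against IgG (4.17% and 8.75% of all genes), and 3 of 76 downward and none upward against anti-CTLA-4 (7.12% and 3.23%). The complex I accessory subunit Ndufc1 had 97.4 CPM in NK cells with depletion, 149 CPM with anti-CTLA-4 and 151 CPM with IgG, a ratio of 0.652 (0.504 to 0.837) against anti-CTLA-4 and 0.644 (0.483 to 0.855) against IgG. T cell subsets differed between these libraries, with 665 CD8 and 12 CD4 cells with depletion, 136 and 172 with anti-CTLA-4 and 71 and 135 with IgG, and the part of this in the T cell ratios, those of Uqcrfs1 and mt-Nd3 included, was not tested. T cells with depletion had no nuclear member past the fold of 77 against IgG, where 3.93% of all genes were upward and 11.4% downward. The complex I subunit mt-Nd3 was downward there, with 313 CPM with depletion and 492 CPM with IgG (ratio 0.637, 0.589 to 0.688). B cells with depletion had 1 of 67 upward against IgG (7.8% of all genes upward, 5.44% downward) and 4 of 72 upward against anti-CTLA-4 (12% upward, 7.81% downward). Among these 4, Ndufaf4 had 72.5 CPM with depletion and 25.8 CPM with anti-CTLA-4, from 33 and 30 UMIs (ratio 2.81, 1.66 to 4.76).

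Anti-CTLA-4 alone against IgG moved few nuclear members past the fold: 1 of 77 in microglia, 3 of 51 in neutrophils, 2 of 76 in NK cells, 1 of 71 in B cells and 0 in T cells and in monocytes and macrophages, every one of them downward. All genes past the fold downward in those comparisons made up 5.01%, 8.64%, 5.16% and 8.08% for the lineages in that order, 4.27% for T cells and 4.26% for monocytes and macrophages. All genes past the fold upward made up 5.67% in microglia, 9.69% in neutrophils, 4.67% in NK cells, 8.67% in B cells, 3.55% in T cells and 3.9% in monocytes and macrophages.

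Other mitochondrial and glycolytic genes, in lists written with earlier results of these data known, were tested in the same fits. The shares of all genes called higher and lower, given above, were 30.3% and 23% in microglia, 26.7% and 14.8% in monocytes and macrophages, 24.6% and 19.2% in neutrophils, 14.1% and 12.7% in NK cells, and 16.7% and 16.4% in B cells. Of 15 glycolysis genes, 14 were higher and none lower in monocytes and macrophages, 11 higher and none lower in neutrophils, and 3 higher and 8 lower in microglia (edgeR against the other lineages). Hk2, a hexokinase, was higher in these myeloid lineages, by 2.55, 2.25 and 3.38 on the log2 scale in monocytes and macrophages, neutrophils and microglia. In NK cells 9 of the 15 were lower and 1 higher, and in B cells 8 were lower. Of 7 carriers and porins of the mitochondrial membranes, 6 were higher in monocytes and macrophages and 5 lower in neutrophils. Slc25a4, an ADP/ATP carrier, was lower by -4.35 in neutrophils and higher by 1.65 in T cells, 1.22 in microglia and 0.98 in B cells. Of 13 genes of the tricarboxylic acid cycle, 6 were lower and 1 higher in neutrophils, and 4 lower and 1 higher in microglia, the lower count there being near that share. Of 8 complex II genes, 2 were lower and none higher in microglia, and 3 were higher in monocytes and macrophages, counts too small to set apart from those shares.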

How the data were processed

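Single-cell 3′ RNA libraries of sorted brain immune cells were analysed, 1 per group. The deposited files hold UMI counts, whole and not normalized, by gene and barcode. Per the file headers they came from Cell Ranger 3.1.0, and the submitters' processing notes name the mm10 build; aligner settings and annotation release are not given in the sources used here. A cell was kept if it had 200 genes or more and no more than 10% of its UMIs from mitochondrial DNA, and lineages were set by lists of 8 markers (6 T cell and 7 B cell markers were in the table). Cells with markers of 2 lists stayed unassigned only where they failed the marker rule given above, so assigned cells can carry markers of another list. No doublet caller was used in the main results, and the top 5% of Scrublet scores were removed as an alternative. Reads of pseudogene copies cannot be told apart from their gene.

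Counts were summed per library and lineage (at least 20 cells) and tested with edgeR 4.0.16 (TMM, filterByExpr, quasi-likelihood, lineage plus library terms) over all genes, with Benjamini-Hochberg adjustment; 23 sums and 10025 genes entered. Replicate libraries are single pools and the library is a term, so p-values measure how lineage differences vary from library to library, not between mice. DESeq2 1.42.0 was an alternative. The edgeR fit and the ratio intervals were checked on simulated data. Named members are the up to 4 with the largest fold change in each direction per lineage that moved the same way in every library on the TMM-scaled level, the tissue isoforms with their partners, core subunits, and up to 3 per library comparison, of which some are given. The members, lists and tests were chosen with earlier results of these data known. Coordinates come from GENCODE vM21 and RefSeq on GRCm38.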

Additional observations from a re-analysis of the deposited data

Results flagged for a closer look

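The share of UMIs from respiratory chain members went different ways in different lineages between the tumor libraries and healthy brain. In each lineage given here all 3 tumor libraries lay on the same side of healthy brain, but with 1 library a group the difference between lineages was not tested. For the nuclear members, the share with IgG over that in healthy brain was 2.56 in neutrophils, 1.29 in microglia and 1.13 in T cells, and 0.734 in B cells. For the mitochondrial members the ratio was 2.65 in neutrophils, and 0.906 in B cells, 0.759 in T cells and 0.731 in monocytes and macrophages. T cells thus had a higher nuclear and a lower mitochondrial share with IgG than in healthy brain.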

How the results depend on the processing

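No paired analysis was possible because each group holds 1 library; in the lineage fits the library term is the block. Without this replicate block (no library term) 2 mitochondrial members were higher in T cells, 4 nuclear members in B cells, 1 mitochondrial member in monocytes and macrophages against microglia, and no nuclear member in CD8 T cells. Of the 33 lineage calls of named nuclear members, 22 kept direction and threshold in every setting, and none changed sign. In cells thinned to 1000 UMIs, nuclear members were 29 lower in microglia, 9 higher in monocytes and macrophages, 11 higher in neutrophils, 2 higher in B cells, 24 higher in monocytes and macrophages against microglia, 0 higher in cycling T cells, and 0 in CD8 T cells, and mitochondrial members were 2 lower in microglia and 1 higher in monocytes and macrophages against microglia. DESeq2 size factors gave 17 higher in monocytes and macrophages, 1 mitochondrial member higher against microglia and 0 in CD8 T cells, and the DESeq2 Wald test gave 12 higher in B cells. Without a filter on low counts 10 were higher in neutrophils and 1 in NK cells against T cells. At most 5% mitochondrial UMIs gave 6 mitochondrial members higher in monocytes and macrophages against microglia, and at least 50 cells gave 1. The Ndufa10 call in CD8 T cells gave 0 under the stricter and looser marker rules, without high Scrublet scores and without ribosomal and mitochondrial genes.

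Leaving out 1 library gave 38 to 52 nuclear members lower in microglia, 11 to 27 higher in monocytes and macrophages, 11 to 26 higher and 15 to 21 lower in neutrophils, 0 to 9 higher in NK cells, 7 to 18 in T cells, 3 to 7 in B cells, 36 to 54 in monocytes and macrophages against microglia, 0 to 2 in NK cells against T cells, 6 to 16 in cycling T cells and 0 to 1 in CD8 T cells. For mitochondrial members it gave 2 to 6 lower in microglia, 11 to 12 lower in neutrophils, 1 to 5 higher in T cells, 10 to 13 higher in B cells, 1 to 5 higher in monocytes and macrophages against microglia and 1 to 4 lower in cycling T cells.

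Counts between libraries depended on scaling. A change of scaling multiplies the ratios of all genes in a comparison by the same factor. The shares of all genes under median-of-ratios scaling are not given here. Median-of-ratios scaling gave, for IgG against healthy brain, 36 nuclear members higher in microglia, 2 lower in monocytes and macrophages, 17 higher in neutrophils and 9 lower in B cells, and for depletion 49 higher in microglia against anti-CTLA-4 and 26 higher in monocytes and macrophages against IgG. With ribosomal and mitochondrial UMIs removed from the total the counts were 19 in microglia and 9 in B cells against healthy brain, and 47 in microglia against anti-CTLA-4. A ratio of at least 2 left 1 higher in microglia, 1 lower in monocytes and macrophages and 2 lower in B cells for IgG against healthy brain, 2 higher in microglia for depletion against anti-CTLA-4 and 1 higher in monocytes and macrophages for depletion against IgG. The looser marker rule gave 7 lower and 5 higher in monocytes and macrophages for these contrasts, and the stricter rule 13 lower in B cells. Neutrophils gave 25 with at least 200 UMIs, 18 after thinning and 41 with their markers left out, and B cells 8 after thinning. After thinning 4 ratios changed sign: Cox6a2 (depletion against IgG, microglia, log2 ratio -0.019), Atp5sl (depletion against anti-CTLA-4, microglia, 0.82), Ndufaf6 (depletion against anti-CTLA-4, monocytes and macrophages, -0.29) and Uqcrc2 (depletion against anti-CTLA-4, neutrophils, -0.035). The cause was not tested. Depth limits the low members: the 53 and 54 neutrophils of anti-CTLA-4 and IgG give few UMIs per member.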

Other observations

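Among the 81 nuclear members tested, the 52 that were lower in microglia had a median longest coding transcript of 747.5 nucleotides (GENCODE vM21), against 1482.5 for the 24 not called and 1445 for the 5 higher. Across these 81 genes, which are not independent replicates, Spearman's rho between transcript length and the microglial log2 fold change was 0.51. It was -0.34 in neutrophils, 0.28 in B cells, 0.12 in T cells, -0.06 in monocytes and macrophages and -0.01 in NK cells.

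Single microglia varied more in mitochondrial than in nuclear share, which was not particular to them. With CD4 depletion the same held in each other lineage except neutrophils, as in T cells (interquartile ranges 1.36% to 3.06% and 2.09% to 2.81%). Over microglia with CD4 depletion the interquartile range ran from 1.42% to 2.30% for nuclear members and from 1.16% to 3.36% for mitochondrial members. In microglia of healthy brain it ran from 1.03% to 1.44% and from 1.0% to 2.04%.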
